A study of Mus musculus with 14 samples.

Results

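Genes of glucose breakdown and of the response to low oxygen were followed as cultured mouse mast cells were moved onto fibroblasts. The set holds 40 genes, listed by name: 18 glycolytic enzymes, 3 carriers, 4 regulators of the flux, 3 genes of oxygen sensing and 12 targets that hypoxia induces. Each was matched exactly to the gene name given by the array, and all 40 were found among the 28090 gene names on it, with 70 probes between them. The brightest probe stood for each gene, and all 40 passed the filter on low signal (well above background on at least 3 of the 14 arrays).

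Glycolysis splits glucose into pyruvate, and lactate dehydrogenase turns pyruvate into lactate when it does not enter the mitochondria. At normal oxygen the prolyl hydroxylases mark the transcription factor HIF-1α for destruction, and at low oxygen HIF-1α escapes them and raises glycolytic enzymes, glucose and lactate carriers, and genes for blood vessel growth, mitochondrial clearance and pH control. Several of its targets, the hydroxylases Egln1 and Egln3 among them, belong to the same feedback loop. Mast cells live in tissue, where oxygen is lower than in room air, and can respond through this pathway.

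RNA was measured on 14 single-colour Agilent arrays. Bone marrow-derived mast cells (BMMCs) are immature mast cells grown with IL-3, here for 4 to 6 weeks, from the marrow of Pla2g3+/+ or Pla2g3-/- mice, both with the strain label C57BL/6.129Sv-N3. Pla2g3 encodes group III secreted phospholipase A2. The groups were Pla2g3+/+ BMMCs (3 arrays), Pla2g3-/- BMMCs (4 arrays), Pla2g3+/+ cells kept for 96 h on a layer of Swiss 3T3 cells, a mouse fibroblast line, with 100 ng/ml stem cell factor (4 arrays), and Pla2g3-/- cells cocultured in the same way (3 arrays). Only cocultured cells met fibroblasts and added stem cell factor, so the effects of the 2 cannot be told apart. Per the labels, over 97% of BMMCs and over 99% of cocultured cells carried Kit and FcεRIα. Cocultured cells were recovered by trypsin, replating and collection of what did not adhere. Effects of this recovery cannot be told apart from those of fibroblasts and stem cell factor either. Whether replicate arrays stand for different animals or cultures is not in the labels, so p-values reflect only how these particular samples spread, which may be technical.

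Between 43% and 55.9% of probes were well above background on each array, and precision is set by how few arrays each group has. All 10 mast cell markers tested were well above background on every array. The Pla2g3 probe read higher, not lower, on arrays labelled Pla2g3-/-: between -1.96 and -1.31 in BMMCs and -3.21 and -1.78 after coculture, against -4.69 to -2.95 and -4.33 to -2.22 on arrays labelled Pla2g3+/+ (log2 distance from the array's 75th percentile). The deleted part of the gene is not given in the sources used here, so this probe may lie outside it and does not check the labels. Genotypes are those of the labels throughout. The 14 arrays came from 4 slides. The cocultured pair of slide 4, Pla2g3+/+ cocultured 3 and Pla2g3-/- cocultured 3, differed from that of slide 2. Over all 15871 genes measured on both slides with a cocultured pair, the difference between genotypes had opposite signs on slides 2 and 4 for 80.3%. These signs alone do not show which of the pairs is the unusual one. Of 19 fibroblast markers tested, 3 to 6 were well above background on each BMMC array and 11 to 18 on each cocultured array, and their part in the results was not tested.

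Hypoxia response elements, where HIF-1α binds with its partner ARNT, share a short core, and the promoters of 6 members are printed to show where its letters lie. RefSeq promoters (GRCm38.p6) were found for 37 of the 40 genes, 2 of them, Pkm2 and Ero1l, under their present symbols Pkm and Ero1a, and not for Slc2a3, Bnip3l and Ndrg1. The 250 bases before the most upstream listed start were searched for ACGTG and GCGTG on both strands, with overlapping matches kept. At least 1 match was present in 30 of 37 members (81.1%, mean GC content 62%), in 43.9% of 17492 protein-coding genes (55% GC) and in 38.6% of all 27025 genes in the table (53% GC). Among members it was present in 13 of the 14 that fell on coculture of Pla2g3+/+ cells and in 17 of the other 23. A match describes letters only, and GC content differed between these sets as well. The promoters of Pdk1, Aldoc, Egln3, Bnip3 and Ankrd37, which fell in both genotypes, follow 5′ to 3′ with that of Ldha, which held 5 matches and did not pass the test in either; capitals mark the matches. The windows are Pdk1 chr2:71872974-71873223 (plus strand), Aldoc chr11:78322823-78323072 (plus strand), Egln3 chr12:54203875-54204124 (minus strand), Bnip3 chr7:138909507-138909756 (minus strand), Ankrd37 chr8:45999851-46000100 (minus strand) and Ldha chr7:46845554-46845803 (plus strand).
Pdk1: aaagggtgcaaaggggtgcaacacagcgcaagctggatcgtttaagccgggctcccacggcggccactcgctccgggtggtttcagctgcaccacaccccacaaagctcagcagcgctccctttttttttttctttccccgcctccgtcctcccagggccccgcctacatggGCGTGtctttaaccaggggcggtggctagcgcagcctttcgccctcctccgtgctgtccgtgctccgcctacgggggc
Aldoc: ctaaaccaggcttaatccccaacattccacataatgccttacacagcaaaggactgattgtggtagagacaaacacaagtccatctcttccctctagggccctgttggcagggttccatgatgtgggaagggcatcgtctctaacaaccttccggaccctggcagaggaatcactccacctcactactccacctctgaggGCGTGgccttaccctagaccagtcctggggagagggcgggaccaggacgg
Egln3: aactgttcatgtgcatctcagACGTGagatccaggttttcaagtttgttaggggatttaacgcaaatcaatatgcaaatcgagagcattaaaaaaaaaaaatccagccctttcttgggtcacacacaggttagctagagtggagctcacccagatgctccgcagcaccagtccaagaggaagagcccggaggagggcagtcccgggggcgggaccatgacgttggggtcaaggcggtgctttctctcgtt
Bnip3: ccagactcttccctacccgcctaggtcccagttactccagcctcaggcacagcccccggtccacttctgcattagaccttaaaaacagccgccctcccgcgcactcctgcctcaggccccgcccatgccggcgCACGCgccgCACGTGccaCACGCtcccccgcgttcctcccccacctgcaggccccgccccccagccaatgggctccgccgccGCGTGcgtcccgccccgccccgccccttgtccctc
Ankrd37: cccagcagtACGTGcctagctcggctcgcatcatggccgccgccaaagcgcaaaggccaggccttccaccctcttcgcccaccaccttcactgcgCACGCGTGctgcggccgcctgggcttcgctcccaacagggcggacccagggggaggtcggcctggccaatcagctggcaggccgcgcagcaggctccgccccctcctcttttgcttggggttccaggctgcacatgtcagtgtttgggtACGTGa
Ldha: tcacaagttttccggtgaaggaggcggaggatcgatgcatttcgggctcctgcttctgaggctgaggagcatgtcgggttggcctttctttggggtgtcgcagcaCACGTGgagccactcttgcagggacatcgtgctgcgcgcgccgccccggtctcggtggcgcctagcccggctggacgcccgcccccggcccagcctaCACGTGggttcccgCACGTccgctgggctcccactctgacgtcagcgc

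More of these genes fell than rose on coculture in both genotypes. A level here is the log2 distance of a signal from its array's 75th percentile, and differences are log2 differences between group means, with "fell" and "rose" kept for an adjusted p under 0.05 over all 16061 genes tested. In Pla2g3+/+ cells 14 of 40 genes fell (35%) and 2 rose (5%), against 6.86% and 6.01% of all genes tested. In Pla2g3-/- cells 10 fell (25%) and 1 rose (2.5%), against 6.51% and 7.78%. The 10 that fell in Pla2g3-/- cells all fell in Pla2g3+/+ cells too, and Ndrg1 rose in both; of all genes tested, 4.57% fell and 4.02% rose in both. The median difference of the 40 genes was -1.02 in Pla2g3+/+ and -0.54 in Pla2g3-/- cells, where the medians of all genes tested were -0.06 and 0.07. Groups did not overlap for 20 lower and 2 higher members in Pla2g3+/+ cells (14.9% and 10.6% of all genes) and for 12 and 4 in Pla2g3-/- cells (12% and 16.1%). At an unadjusted p under 0.05 there were 25 members in Pla2g3+/+ (26.3% of all genes) and 18 in Pla2g3-/- cells (29.3%). In bulk RNA, fewer cells with a transcript and less transcript per cell cannot be told apart.

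**Figure D1:**
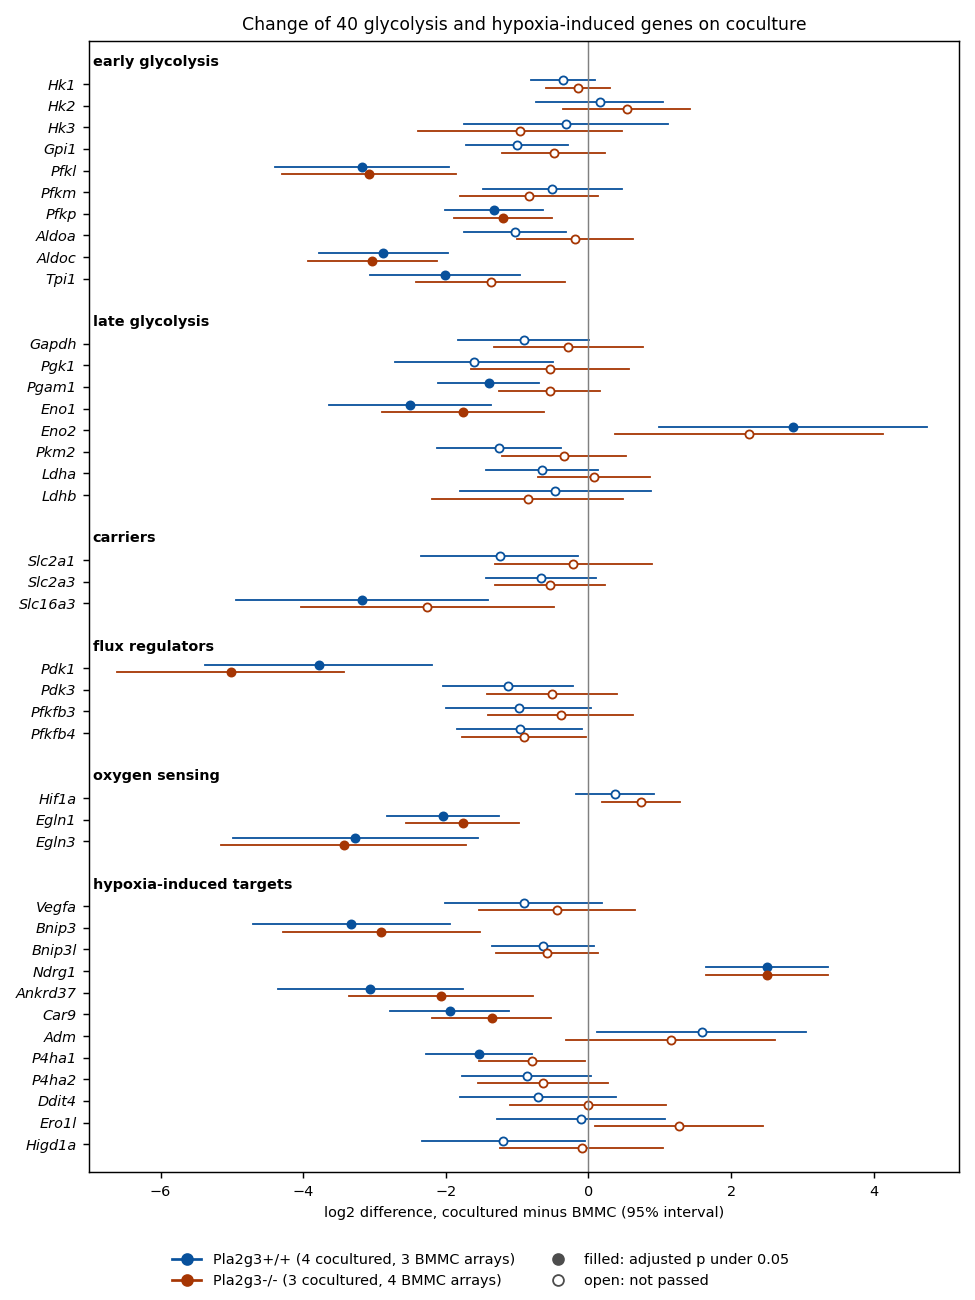
Log2 difference, cocultured minus BMMC, of each of the 40 genes with its 95% interval, Pla2g3+/+ in blue and Pla2g3-/- in brown, filled where the adjusted p was under 0.05. Pdk1 lies farthest to the left in both genotypes (-3.78 and -5.02), and Ndrg1 is the member with filled points to the right in both.

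Of the 18 glycolytic enzymes, 6 fell (33.3%) and 1 rose (5.56%) in Pla2g3+/+ cells, against 6.86% and 6.01% of all genes tested. In Pla2g3-/- cells 4 fell (22.2%), against 6.51% of all genes. The medians were -1.02 and -0.54. Without the cocultured pair of slide 4, or without Pla2g3-/- cocultured 3 alone, the Pla2g3-/- median was -0.18. The 3 hexokinases, which trap glucose as its phosphate, did not pass: Hk1 differed by -0.36 in Pla2g3+/+ and -0.15 in Pla2g3-/- cells, with intervals of -0.81 to 0.09 and -0.60 to 0.30. Hk2, the inducible form, differed by 0.16 and 0.53, and Hk3 was well above background on 0 of 7 cocultured and 3 of 7 BMMC arrays. The isomerase Gpi1 differed by -1.005 (adjusted p = 0.0655) and -0.49 (adjusted p = 0.359), and a dim separate probe was 0.81 higher in Pla2g3+/+ cells (adjusted p = 0.633). The 4 separate Hk1 probes tested lay between -0.67 and 0.08 in Pla2g3+/+ cells, 2 above 0 and 2 below, and did not pass.

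Phosphofructokinase catalyses the committed step, and its subunits are encoded by Pfkl (liver), Pfkm (muscle) and Pfkp (platelet). The Pfkl probe (chr10:77450926-77450985, mm9) read 2.21, 2.98 and 3.68 in Pla2g3+/+ BMMCs and -1.21, -0.13, 0.60 and -0.17 after coculture. On the Pla2g3-/- arrays Pfkl read 1.94, 3.15, 3.49 and 2.21 before and 0.29, 0.11 and -1.54 after. Every cocultured array was below every BMMC array, a difference of -3.18 (SE 0.56, adjusted p = 0.00286) or 9.06-fold lower in Pla2g3+/+ and of -3.08 (SE 0.56, adjusted p = 0.004) in Pla2g3-/- cells. Pfkp read 3.53, 3.97 and 4.21 in Pla2g3+/+ BMMCs against 2.11, 2.39, 3.02 and 2.80 when cocultured, and 3.55, 4.03, 4.21 and 3.78 against 3.04, 2.97 and 2.05 in Pla2g3-/- cells. These groups did not overlap either, and Pfkp fell by 1.32 (SE 0.32, adjusted p = 0.0162) and by 1.20 (adjusted p = 0.0255). Of the separate Pfkp probes, 1 passed in both genotypes (-1.58 and -1.45, adjusted p = 0.0104 and 0.0166) and 1 in neither (-1.14 and -0.86). Pfkm differed by -0.51 and -0.83 and passed in neither genotype.

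Aldolase splits the phosphorylated sugar, Aldoa being the muscle form and Aldoc the brain form. Aldoc (chr11:78139964-78140023) read 3.17, 3.96 and 4.46 in Pla2g3+/+ BMMCs and 0.59, 1.06, 1.07 and 1.22 after coculture. The Pla2g3-/- arrays gave 2.87, 4.34, 4.10 and 3.37 before and 1.34, 0.45 and 0.13 after. The lowest BMMC array was above the highest cocultured one in each genotype, and Aldoc differed by -2.88 (SE 0.42, adjusted p = 7.74e-04) and -3.03 (SE 0.42, adjusted p = 7.59e-04), 7.35-fold and 8.16-fold lower. A separate Aldoc probe fell by 2.41 and 3.29. Aldoa did not pass (-1.04, SE 0.33, adjusted p = 0.0618, and -0.19, SE 0.38, adjusted p = 0.789), was saturated on 1 Pla2g3-/- BMMC array and had no usable spot on Pla2g3-/- cocultured 2, so that its fit used 13 arrays. Tpi1, triose phosphate isomerase, read 5.91, 6.82 and 7.13 in Pla2g3+/+ BMMCs and 4.27, 4.38, 5.38 and 4.41 when cocultured. It fell there (-2.01, SE 0.48, adjusted p = 0.0163), with Pla2g3+/+ cocultured 3 above the other Pla2g3+/+ cocultured arrays. For Pla2g3-/- cells, Tpi1 read 5.71, 6.81, 6.94 and 5.84 before and 5.53, 5.46 and 3.88 after, without overlap but with an adjusted p of 0.078 for a difference of -1.37.

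In the second stage, which yields ATP, Pgam1 and Eno1 fell in Pla2g3+/+ cells. Pgam1, phosphoglycerate mutase, read 6.65, 7.07 and 7.51 in BMMCs and 5.79, 5.21, 6.37 and 5.34 in cocultured Pla2g3+/+ cells (-1.40, SE 0.33, adjusted p = 0.014). Its Pla2g3-/- arrays overlapped, with 6.40, 6.97, 7.27 and 6.55 before and 6.41, 6.30 and 6.05 after (-0.54, SE 0.33, adjusted p = 0.295). The enolase Eno1 read 1.39, 1.21 and 2.02 in Pla2g3+/+ BMMCs against -1.03, -1.47, 0.50 and -1.82 when cocultured. Eno1 in Pla2g3-/- cells read 1.28, 1.74, 1.72 and 1.29 before and 0.38, 0.19 and -1.33 after. Cocultured arrays were lower throughout, with differences of -2.50 (SE 0.52, adjusted p = 0.0078) and -1.76 (SE 0.52, adjusted p = 0.0411). Eno2, the neuronal enolase, moved the other way. It read -4.44, -3.50 and -4.62 in Pla2g3+/+ BMMCs and -1.31, -0.28, -2.96 and -0.71 when cocultured, a rise of 2.87 (SE 0.87, adjusted p = 0.0464), and in Pla2g3-/- cells -3.59, -3.33, -4.85 and -5.87 against -3.32, -3.17 and 0.00 (2.25, SE 0.87, adjusted p = 0.104). Eno2 was well above background on only 3 of 7 BMMC arrays, and a separate Eno2 probe, 2.15 higher, did not pass (adjusted p = 0.214).

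The other late enzymes did not pass in either genotype. Gapdh, often used as a loading control, differed by -0.90 (SE 0.42, adjusted p = 0.202) in Pla2g3+/+ and -0.28 (SE 0.48, adjusted p = 0.751) in Pla2g3-/- cells, in a fit of 13 arrays since Pla2g3-/- cocultured 2 had no usable spot. Pgk1, phosphoglycerate kinase, differed by -1.61 (adjusted p = 0.0576) and -0.54 (adjusted p = 0.525). For Pkm2, pyruvate kinase, the values were -1.25 (adjusted p = 0.0581) and -0.34 (adjusted p = 0.621). Ldha, the lactate dehydrogenase subunit that favours lactate formation, differed by -0.65 and 0.08, with intervals of -1.44 to 0.13 and -0.71 to 0.86. Ldhb was well above background on 7 of 14 arrays and differed by -0.47 and -0.85. Group means (± SD) of Pgk1 were 7.42 ± 0.65 (n = 3) and 5.81 ± 0.85 (n = 4) in Pla2g3+/+ cells before and after coculture, and 7.14 ± 0.63 (n = 4) and 6.60 ± 0.71 (n = 3) in Pla2g3-/- cells. Those of Ldha were 7.94 ± 0.33, 7.28 ± 0.30, 7.53 ± 0.44 and 7.61 ± 0.78 in the same order. Other probes of these genes differed in sign within small values: -0.07 for Ldha and 0.37 for Pkm2 in Pla2g3-/- cells. Without the cocultured pair of slide 4, Gpi1, Aldoa, Gapdh, Pgk1 and Pkm2 passed in Pla2g3+/+ cells as well (-1.02, -1.23, -1.22, -1.96 and -1.50, adjusted p between 0.00894 and 0.0302), while in Pla2g3-/- cells they did not.

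Of the 3 carriers and 4 regulators of the flux, Slc16a3 and Pdk1 fell in Pla2g3+/+ cells and Pdk1 fell in Pla2g3-/- cells. Of all genes tested, 6.86% and 6.51% fell. Slc16a3, the lactate exporter MCT4, read 4.30, 6.05 and 6.05 in Pla2g3+/+ BMMCs and 1.60, 1.62, 4.02 and 1.94 in cocultured cells, Pla2g3+/+ cocultured 3 being high among them. It fell there by 3.18 (SE 0.82, adjusted p = 0.0231). Slc16a3 in Pla2g3-/- cells read 4.07, 5.82, 5.77 and 4.33 before and 3.73, 3.67 and 0.80 after, without overlap, and the difference of -2.26 did not pass (adjusted p = 0.0848). The glucose carriers GLUT1 (Slc2a1) and GLUT3 (Slc2a3) did not pass, with -1.24 and -0.67 in Pla2g3+/+ and -0.21 and -0.54 in Pla2g3-/- cells. A dim separate probe of Slc2a3 passed in Pla2g3-/- cells (-1.73, adjusted p = 0.0302).

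Pdk1 is a kinase that inactivates pyruvate dehydrogenase and so keeps pyruvate out of the mitochondria. In the fit reported here it had the largest difference of the 40 genes in both genotypes. Its probe (chr2:71741820-71741879, mm9) read 1.35, 3.08 and 3.30 in Pla2g3+/+ BMMCs and -2.38, -0.42, -1.16 and -0.86 after coculture. Pdk1 in Pla2g3-/- cells read 1.48, 3.13, 3.18 and 1.72 before and -1.62, -1.93 and -4.36 after, with 2 of these 3 cocultured arrays well above background. No cocultured array reached a BMMC array, and Pdk1 differed by -3.78 (SE 0.74, adjusted p = 0.00499) in Pla2g3+/+ and -5.02 (SE 0.74, adjusted p = 0.0011) in Pla2g3-/- cells. The Pla2g3+/+ difference is 13.8-fold. The Pla2g3-/- value rests in part on an array near background, Pla2g3-/- cocultured 3, and without the pair of slide 4 it was -4.15 (adjusted p = 0.00227). A separate probe gave -2.77 and -3.76. With another background correction, normexp, Pdk1 differed by -2.66 and -2.71 and was not the largest. Bnip3 in Pla2g3+/+ cells and Aldoc in Pla2g3-/- cells differed by more there. The other regulators did not pass: Pdk3, a kinase of the same family, differed by -1.13 and -0.51. Pfkfb3 and Pfkfb4, which set the level of the activator of phosphofructokinase, differed by -0.98 and -0.97 in Pla2g3+/+ and by -0.39 and -0.90 in Pla2g3-/- cells.

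Among the genes of oxygen sensing both hydroxylases fell, and Hif1a did not pass with all arrays. Egln1 (PHD2), the main hydroxylase at normal oxygen, read 1.15, 2.32 and 2.64 in Pla2g3+/+ BMMCs and 0.35, -0.10, -0.26 and -0.0008 when cocultured. Egln1 in Pla2g3-/- cells read 1.56, 2.24, 2.41 and 1.64 before and -0.27, 0.42 and 0.44 after. The groups did not overlap in either genotype, with differences of -2.04 (SE 0.36, adjusted p = 0.00302) and -1.77 (SE 0.36, adjusted p = 0.00775). Egln3 (PHD3), which hypoxia induces, read -0.54, 1.04 and 2.05 in Pla2g3+/+ BMMCs and -3.48, -1.90, -2.19 and -2.09 when cocultured. The Pla2g3-/- values of Egln3 were -0.27, 0.92, 1.95 and -0.99 before and -4.03, -1.56 and -3.51 after, again with 2 of 3 cocultured arrays well above background. Its BMMC arrays spread widely, with Pla2g3+/+ BMMC 1, Pla2g3-/- BMMC 1 and Pla2g3-/- BMMC 4 below 0, yet all lay above the cocultured arrays (-3.27, SE 0.80, adjusted p = 0.0173, and -3.43, SE 0.80, adjusted p = 0.014). Hif1a itself read 1.78, 1.93 and 1.47 in Pla2g3+/+ BMMCs and 1.98, 2.004, 2.61 and 1.81 when cocultured, a difference of 0.37 (SE 0.25, adjusted p = 0.394). Hif1a in Pla2g3-/- cells was 0.74 (SE 0.25, adjusted p = 0.0701) higher, without overlap. It passed there without the cocultured pair of slide 4 (0.90, adjusted p = 0.00897), without Pla2g3+/+ cocultured 3 (0.74, adjusted p = 0.0337) and without Pla2g3-/- cocultured 3 (0.90, adjusted p = 0.0359). These are transcript levels, and HIF-1α is controlled mainly as a protein, which was not measured.

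The 12 hypoxia-induced targets split into genes that fell and a single gene that rose, Ndrg1. In Pla2g3+/+ cells 4 fell (33.3%) and 1 rose (8.33%), against 6.86% and 6.01% of all genes tested. In Pla2g3-/- cells 3 fell (25%) and 1 rose (8.33%), against 6.51% and 7.78%. The shares that rose were thus near those of all genes. The medians of the targets were -0.89 and -0.51. The Pla2g3-/- median was -0.25 without the cocultured pair of slide 4 or Pla2g3-/- cocultured 3 alone, and -0.23 without Pla2g3-/- BMMC 3. Bnip3, which directs mitochondria to autophagy, read 4.29, 5.47 and 6.01 in Pla2g3+/+ BMMCs and 0.97, 1.54, 3.59 and 1.62 after coculture. Bnip3 in Pla2g3-/- cells read 4.14, 5.53, 6.10 and 5.06 before and 2.82, 2.51 and 1.58 after. Every cocultured array was lower, with differences of -3.33 (SE 0.64, adjusted p = 0.0046) and -2.90 (SE 0.64, adjusted p = 0.0106), or 10.02-fold and 7.48-fold. Its relative Bnip3l differed by -0.64 and -0.58 and did not pass.

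Ankrd37, an ankyrin repeat gene induced by hypoxia, read 2.599, 3.34 and 3.99 in Pla2g3+/+ BMMCs and 0.12, -0.22, 0.10 and 1.02 when cocultured (-3.06, SE 0.60, adjusted p = 0.00517). Ankrd37 in Pla2g3-/- cells read 3.56, 2.86, 4.18 and 1.43 before and 1.04, 1.69 and 0.10 after, Pla2g3-/- BMMC 4 lying within the cocultured range (-2.07, SE 0.60, adjusted p = 0.0374). Car9, the membrane carbonic anhydrase that helps to control pH, had -0.15, 0.50 and 0.22 in Pla2g3+/+ BMMCs against -2.03, -1.81, -1.68 and -1.50 (-1.95, SE 0.39, adjusted p = 0.00566). The Pla2g3-/- arrays gave -0.22, 0.42, -0.03 and -0.28 before and -0.43, -1.29 and -2.43 after for Car9 (-1.36, SE 0.39, adjusted p = 0.0355), Pla2g3-/- cocultured 1 lying just below the BMMCs. P4ha1, a collagen prolyl hydroxylase subunit, read 4.15, 5.08 and 4.72 in Pla2g3+/+ BMMCs and 3.37, 2.45, 3.87 and 2.76 when cocultured, and fell by 1.54 (SE 0.35, adjusted p = 0.0113). P4ha1 in Pla2g3-/- cells read 4.59, 4.89, 4.53 and 4.73 before and 4.06, 4.17 and 3.46 after and did not pass (-0.79, adjusted p = 0.148).

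Ndrg1, a stress-responsive gene that hypoxia, iron depletion and differentiation raise in many cell types, read 4.26, 4.68 and 5.65 in Pla2g3+/+ BMMCs and 7.26, 7.52, 6.84 and 7.82 after coculture. Ndrg1 in Pla2g3-/- cells read 4.19, 4.76, 5.19 and 3.98 before and 7.43, 6.57 and 7.10 after. Every cocultured array was above every BMMC array, and the rise was 5.64-fold in Pla2g3+/+ (2.50, SE 0.40, adjusted p = 0.00146) and 5.67-fold in Pla2g3-/- cells (2.50, SE 0.40, adjusted p = 0.00167). The remaining targets did not pass: Vegfa, the angiogenic factor, differed by -0.91 and -0.44 (0.18 and 0.40 on separate probes in Pla2g3-/- cells), P4ha2 by -0.87 and -0.64, and Ddit4, an inhibitor of mTOR signalling, by -0.71 and -0.002. Higd1a, a mitochondrial protein, differed by -1.19 and -0.09, though a separate probe passed in Pla2g3+/+ cells (-0.98, adjusted p = 0.0400). Ero1l, an oxidase of the endoplasmic reticulum, was -0.11 in Pla2g3+/+ and 1.26 in Pla2g3-/- cells (adjusted p = 0.143). Adm, a vasodilator peptide, was 1.59 and 1.15 higher and well above background on 3 of 7 BMMC arrays.

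**Figure D2:**
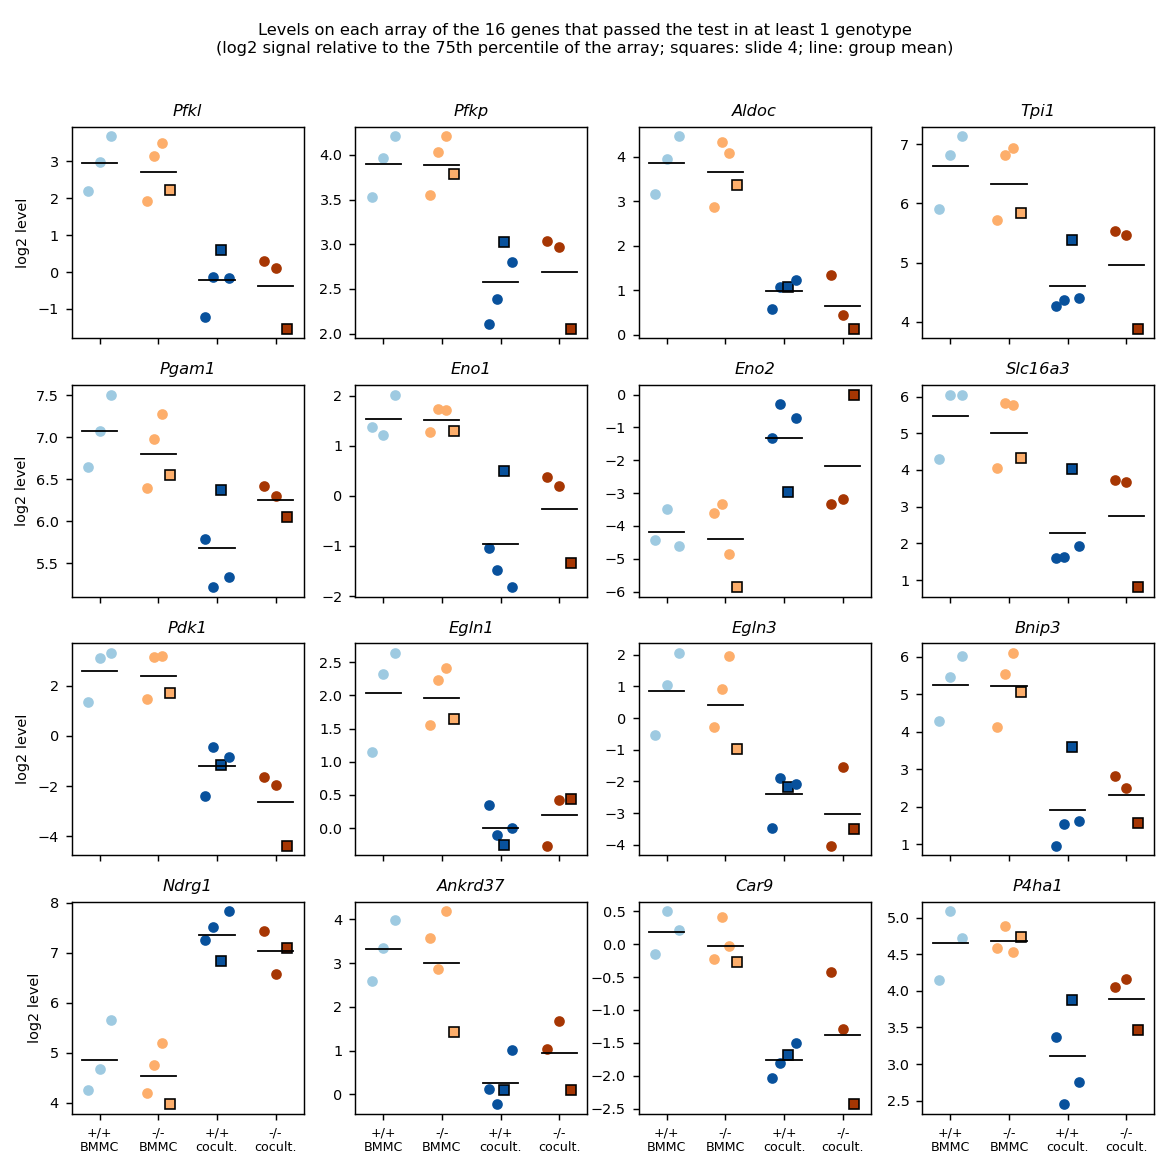
Level of each of the 16 genes that passed in at least 1 genotype on every array (log2 distance from the array's 75th percentile), by group, with lines at the group means and squares for slide 4. Pfkl, Aldoc, Pdk1, Bnip3 and Ndrg1 show BMMC and cocultured arrays apart in both genotypes, and Pla2g3+/+ cocultured 3 is high for Tpi1 and Slc16a3.

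Not all of these calls were equally firm. Under 24 alternatives (other scalings, filters and blocks, the authors' values, and each array left out in turn) 7 of the 16 calls in Pla2g3+/+ cells were kept in all of them, those of Pfkl, Aldoc, Pdk1, Egln1, Bnip3, Ankrd37 and Ndrg1. In Pla2g3-/- cells 5 of the 11 were kept in all, those of Pfkl, Aldoc, Pdk1, Bnip3 and Ndrg1. Leaving out Pla2g3+/+ BMMC 2 ended the Pla2g3+/+ calls of Pfkp, Tpi1, Pgam1, Slc16a3, Egln3, P4ha1 and Eno2 (adjusted p 0.0506 to 0.0942), leaving 9 genes, and leaving out Pla2g3+/+ BMMC 3 those of Pfkp, Tpi1, Pgam1, Slc16a3, Egln3 and Eno2 (adjusted p 0.0756 to 0.147), leaving 10. Slc16a3 also lost its call without Pla2g3+/+ cocultured 1, 2 or 4 (adjusted p 0.0516 to 0.0589) and with slide as a block (-3.22, adjusted p = 0.0597). The call of Eno2 further ended without any of Pla2g3+/+ BMMC 1, Pla2g3-/- BMMC 1, 2 or 3, or Pla2g3+/+ cocultured 1, 2 or 4 (adjusted p 0.0525 to 0.131), and with the slide block (2.85, adjusted p = 0.113). Of the alternatives other than leaving out 1 array, 5 of 9 ended the Pla2g3+/+ call of Eno2 and 3 of 10 that of Slc16a3. Calls of Tpi1 and P4ha1 ended in 2 of 10, and those of Pfkp, Pgam1, Eno1, Egln3 and Car9 in 1, the authors' values.

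The Pla2g3-/- call of Eno1 ended without any of the 10 Pla2g3+/+ or Pla2g3-/- BMMC or Pla2g3-/- cocultured arrays (adjusted p 0.0509 to 0.114) and with the slide block (-1.83, adjusted p = 0.0727). Pfkp lost its call without Pla2g3-/- BMMC 2, Pla2g3-/- BMMC 3 or Pla2g3-/- cocultured 3 (adjusted p 0.0613 to 0.0666) and with the slide block (-1.13, adjusted p = 0.0527). Ankrd37 lost it without Pla2g3+/+ BMMC 2, any of Pla2g3-/- BMMC 1 to 3, or Pla2g3-/- cocultured 1 or 3 (adjusted p 0.0514 to 0.0975). Car9 lost it without any Pla2g3-/- BMMC array, Pla2g3-/- cocultured 2 or Pla2g3-/- cocultured 3 (adjusted p 0.0503 to 0.0934), and Egln3 without Pla2g3-/- cocultured 1 (-2.93, adjusted p = 0.0715). Of the 10 alternatives other than leaving out 1 array, 7 ended the Pla2g3-/- call of Car9. They included normexp (-0.46, adjusted p = 0.299) and the authors' values (adjusted p = 0.988). Of the same 10, 5 ended those of Eno1 and Ankrd37, 4 that of Pfkp and 1 that of Egln1. Egln3 lost its call in 2, normexp (-1.24, adjusted p = 0.148) and the authors' values (adjusted p = 0.567). Without Pla2g3-/- BMMC 2 or Pla2g3-/- BMMC 3, 7 genes passed in Pla2g3-/- cells. Within slides, the 16 Pla2g3+/+ differences kept their sign on both slides that held both groups, and the 11 Pla2g3-/- differences on all 3. Those genes were called on the same arrays, so this agreement is not an independent check of the calls. Without the cocultured pair of slide 4, 26 genes passed in Pla2g3+/+ cells, 23 of them lower (14% of all genes were) and 3 higher (9.63%), and 11 in Pla2g3-/- cells, 8 lower (11.9%) and 3 higher (19%).

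The median difference of all 40 members within slides was -1.28 on slide 2 and -1.75 on slide 3 in Pla2g3+/+ cells. In Pla2g3-/- cells it was -0.71 on slide 2, -0.80 on slide 4 and near 0 on slide 1, where 20 members were higher and 20 lower.

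Neighbouring pathways were read from 7 lists. Over all genes tested, 6.01% rose and 6.86% fell in Pla2g3+/+ cells, and 7.78% rose and 6.51% fell in Pla2g3-/- cells. The counts of the lists were not tested against these shares. Of 26 other genes of glycolysis and gluconeogenesis tested, 2 fell in Pla2g3+/+ cells, and 2 rose and 4 fell in Pla2g3-/- cells. Pgm2l1 and Galm, a sugar phosphate synthase and an epimerase of hexoses, fell in both, Pgm2l1 by 1.67 and 1.30, Galm by 1.93 and 2.64. Of the 8 pyruvate dehydrogenase genes 2 rose in Pla2g3-/- cells, Dld by 0.99 (adjusted p = 0.0226) and Brp44l, a subunit of the mitochondrial pyruvate carrier, by 1.19 (adjusted p = 0.0433), and in Pla2g3+/+ cells the lowest adjusted p was that of Dld, 0.61 (adjusted p = 0.141). Of 19 genes of the tricarboxylic acid cycle 1 rose in Pla2g3+/+ cells (Sdhb, 0.92, adjusted p = 0.0424) and 2 in Pla2g3-/- cells (Sdhb and Mdh2, 1.26 and 1.31). Of 8 pentose phosphate genes 3 rose in Pla2g3-/- cells: G6pdx, the entry enzyme, by 2.05 (adjusted p = 0.00585), Pgd by 2.49 (adjusted p = 0.0118) and Taldo1, named after its value was seen, by 1.58 (adjusted p = 0.0135). In Pla2g3+/+ cells the lowest adjusted p of this list was that of G6pdx, 1.08 (adjusted p = 0.0988). Differences between the genotypes in these counts were not tested.

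Of 16 genes of the HIF machinery, 1 rose and 1 fell in each genotype, the same genes in both. Single calls in a list of this size lie near the shares of all genes tested. Those were 6.01% higher and 6.86% lower in Pla2g3+/+ cells, and 7.78% and 6.51% in Pla2g3-/- cells. Siah2, a ubiquitin ligase for the prolyl hydroxylases, rose by 0.81 (adjusted p = 0.0334) and 1.23 (adjusted p = 0.0042), and Cited2, which competes with HIF-1α for its coactivator, was -3.01 (adjusted p = 7.26e-04) and -2.26 (adjusted p = 0.00509). Of 24 other hypoxia-induced genes, 4 rose and 5 fell in Pla2g3+/+ cells, and 2 rose and 6 fell in Pla2g3-/- cells. Those that rose in Pla2g3+/+ cells include Igfbp3 and Lox, named after their values were seen. Igfbp3 was well above background on no BMMC array and Lox on 1 Pla2g3+/+ BMMC array. The adenylate kinase Ak3l1 (-3.80 and -3.82) and the carbonic anhydrase Car12 (-5.28 and -3.75) fell in both. Ak3l1 was well above background on 1 Pla2g3+/+ and 1 Pla2g3-/- cocultured array, and Car12 on 2 and 3, so these sizes are imprecise. Hmox1, heme oxygenase, rose by 3.22 (adjusted p = 0.0181) and 5.19 (adjusted p = 0.00137). Of 9 genes of the Myc and MondoA network, Mycn fell in both genotypes (-2.60 and -4.36) and Arrdc4, which glucose induces through MondoA, rose in Pla2g3+/+ cells (4.03, adjusted p = 0.00881).

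BMMC arrays differed among themselves in these genes before any coculture. Over the 34 members well above background on all arrays, the distance from the lowest to the highest of the 7 BMMC arrays had a median of 1.27 on the log2 scale (quartiles 0.969 and 1.65). The same distance over 11107 genes well above background on all arrays had a median of 0.78 (0.553 and 1.12). The median deviation of these members from the mean of the BMMC groups was -0.40 on Pla2g3+/+ BMMC 1, -0.45 on Pla2g3-/- BMMC 1 and -0.45 on Pla2g3-/- BMMC 4. It was 0.27 on Pla2g3+/+ BMMC 2, 0.57 on Pla2g3+/+ BMMC 3, 0.18 on Pla2g3-/- BMMC 2 and 0.36 on Pla2g3-/- BMMC 3. On the first 3 of these arrays 31, 32 and 31 of 34 members lay below the mean, and on the other 4 arrays 6, 2, 6 and 6, while 39% to 62.4% of all genes did. Arrays 1 of both genotypes shared slide 1, those numbered 2 shared slide 2 and those numbered 3 slide 3, so slide and replicate number cannot be told apart there.

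**Figure D3:**
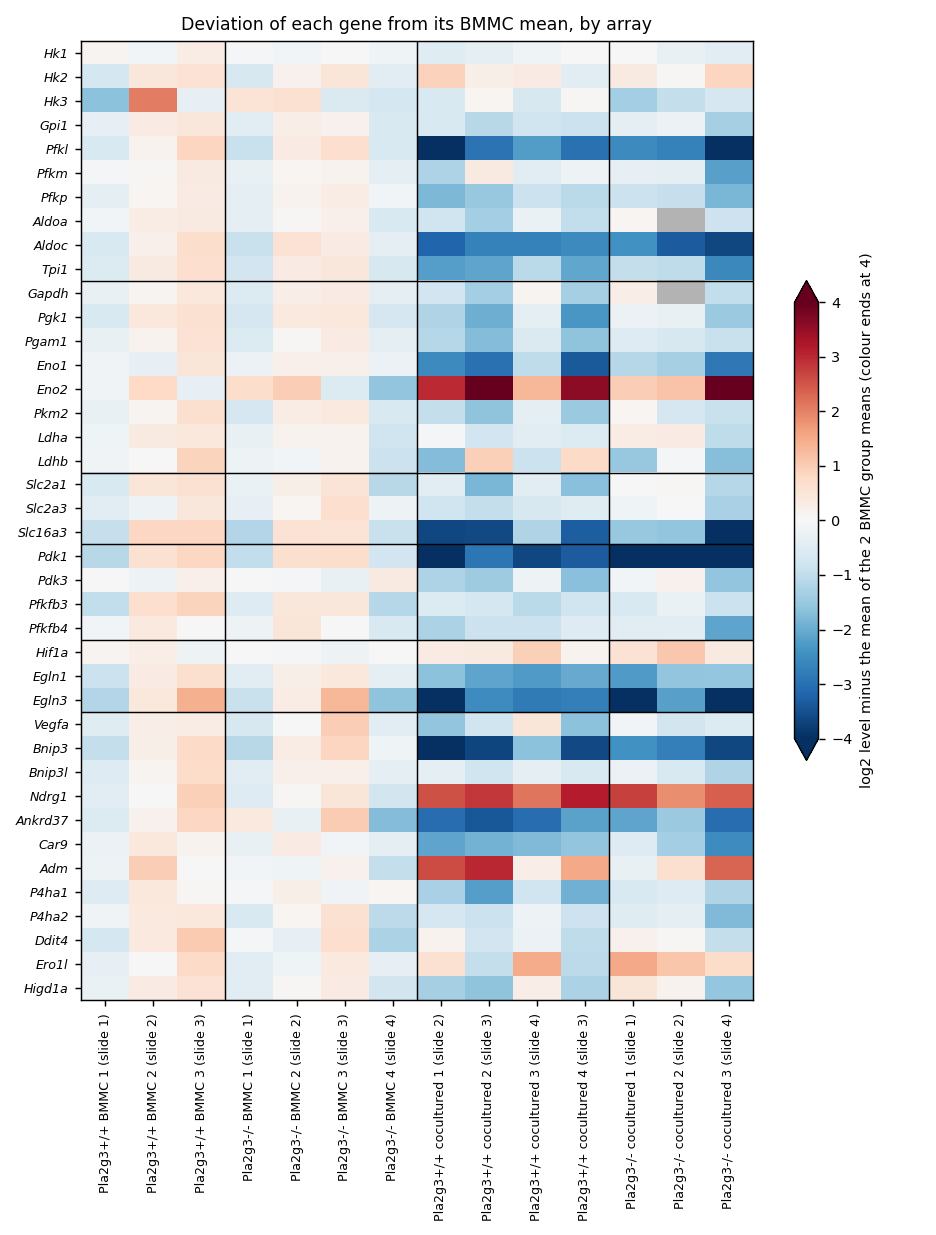
Deviation of each gene (vertical axis, in groups by role) from the mean of the 2 BMMC group means on each of the 14 arrays (horizontal axis), as a log2 difference, with colour ending at 4 and grey for the 2 missing values. Pfkl, Aldoc, Pdk1, Egln3 and Bnip3 are blue on the cocultured arrays, Ndrg1 and Eno2 are red, and Pla2g3+/+ BMMC 1, Pla2g3-/- BMMC 1 and Pla2g3-/- BMMC 4 are pale blue for most genes.

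The genotype comparison asked whether lack of Pla2g3 alters these genes before or after coculture. Before coculture, 0 of 40 members passed with limma, as did 0 of all genes tested, and 0 members had an unadjusted p under 0.05 (1.06% of all genes). Groups did not overlap for 0 higher and 0 lower members (0.828% and 3.12% of all genes). Arrays labelled Pla2g3-/- were on average lower for 37 of 40 members, with a median of -0.25, beside 10542 of 16061 genes tested and a median of -0.09. Within the 3 same-numbered pairs, which share a slide, 24, 25 and 33 of 40 were lower, with medians of -0.08, -0.08 and -0.22, and Pla2g3-/- BMMC 4, which has no pair, was among the lower arrays. After coculture, again 0 of 40 passed, 1 member, P4ha1, had an unadjusted p under 0.05 (3.77% of all genes), and 27 of 40 were higher in arrays labelled Pla2g3-/-, with a median of 0.22. Groups did not overlap for 0 higher and 1 lower member, Hk3, which was not well above background on any cocultured array (0.816% and 0.984% of all genes). For the interaction, which asks whether coculture acted differently in the genotypes, 0 of 40 passed and 0 had an unadjusted p under 0.05 (0.803% of all genes). The interaction was above 0 for 32 of 40 members with a median of 0.45, beside 9720 of 16061 genes and a median of 0.14. No direction between genotypes is drawn from these values, which did not pass.

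The difference between cocultured cells of the 2 genotypes took opposite signs on slides 2 and 4. On slide 2, the Pla2g3-/- array was above the Pla2g3+/+ array for 30 of 38 members measured on both, with a median log2 difference of 0.62. On slide 4 it was below for 34 of 40, with a median of -0.75. For 32 of 38 members the signs on the 2 slides were opposite, close to the 80.3% of all genes. Slc16a3, for example, differed by 2.07 on slide 2 and -3.21 on slide 4, Tpi1 by 1.19 and -1.50, Eno1 by 1.23 and -1.83, and Eno2 by -1.85 and 2.96. The pair of slide 4 was singled out by this same difference, so a fit without it does not test the genotypes independently. Its calls are given as description, and no direction between genotypes is drawn from them. Without the pair of slide 4, 10 of 40 members passed between the genotypes after coculture (25%), as did 25.2% of all genes. These were Gapdh, Pgk1, Eno1, Slc16a3, Pdk3, P4ha1, Ero1l and Higd1a, higher in arrays labelled Pla2g3-/- (16% of all genes), and Eno2 and Adm, lower (9.22%). In the same fit 3 of 40 interactions passed (7.5%; 12.7% of all genes), all above 0 (9.04% of all genes were called above and 3.65% below), those of Eno1 (1.76, adjusted p = 0.0227), Pdk3 (1.46, adjusted p = 0.0195) and Higd1a (2.13, adjusted p = 0.0179).

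**Figure D4:**
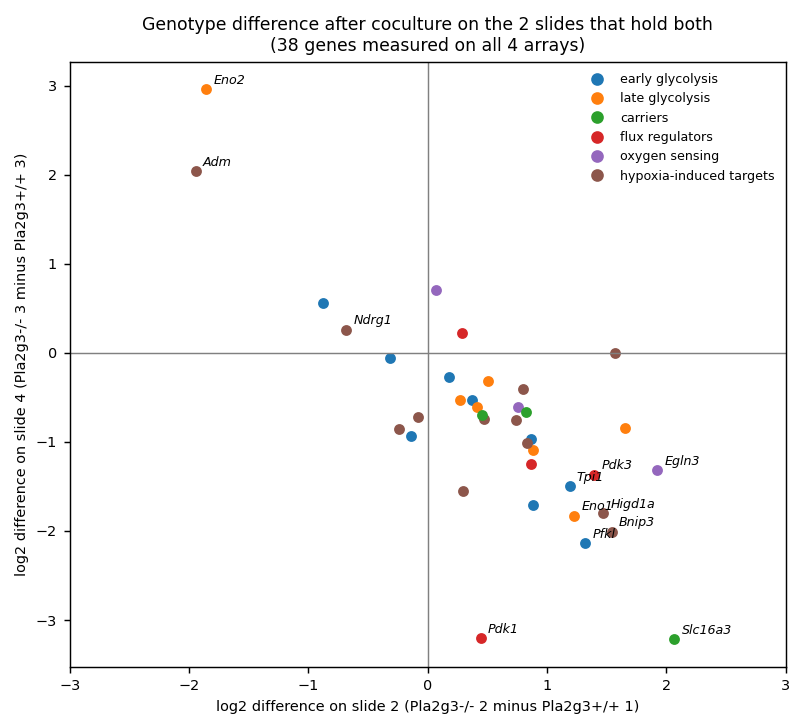
Log2 difference between cocultured Pla2g3-/- and Pla2g3+/+ arrays of slide 2 (horizontal axis) and of slide 4 (vertical axis) for the 38 genes measured on all 4 arrays, coloured by role. Most points lie in the lower right or upper left, where the signs are opposite (32 of 38).

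The cocultured arrays also differed in fibroblast transcripts. The mean log2 level of 19 fibroblast markers was 1.34, 3.19, -1.53 and 1.59 on Pla2g3+/+ cocultured 1 to 4 and -1.66, -0.99 and 0.67 on Pla2g3-/- cocultured 1 to 3. On the same arrays the median deviation of the members well above background on all arrays was -1.17, -1.38, -0.45 and -1.29, and -0.28, -0.39 and -1.32. The 3 cocultured arrays with the lowest marker levels, Pla2g3+/+ cocultured 3 and Pla2g3-/- cocultured 1 and 2, thus had the smallest deviations, and fibroblast markers and slide changed together on the pair of slide 4. Vim, which was well above background on all BMMC arrays too and made up most of the summed signal there, had no value on Pla2g3+/+ BMMC 3. Without it, the other 18 markers summed to between 15.62 and 448.3 times the 75th percentile on cocultured arrays and to between 3.876 and 6.463 times on BMMC arrays. Most of the latter was Timp3 (2.898 to 5.42 times), which fell on coculture, and Col1a1, Col3a1, Col5a1, Dcn and Serpinh1 were well above background on no BMMC array. What fibroblast RNA contributed to the levels of the 40 genes was not tested.

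**Figure D5:**
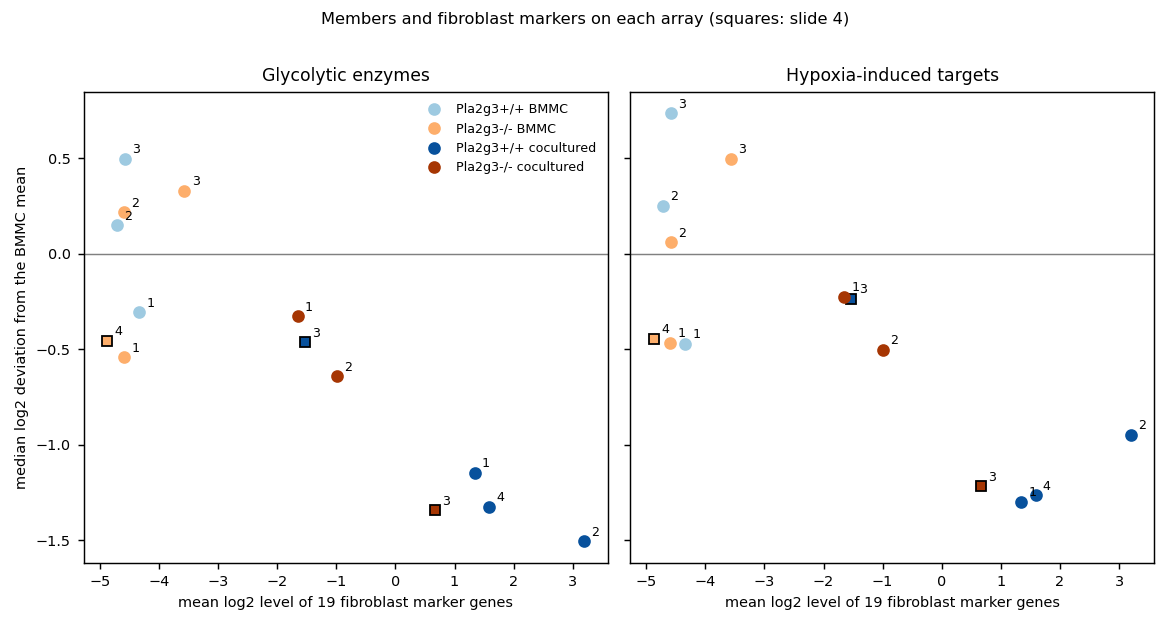
Median log2 deviation from the BMMC mean of the 15 glycolytic enzymes (left) and 11 hypoxia-induced targets (right) that were well above background on all arrays, against the mean log2 level of 19 fibroblast markers, for each of the 14 arrays, numbered by replicate (Pla2g3+/+ BMMC 3 without Vim). For the enzymes, the 3 cocultured arrays with the least fibroblast signal have medians of -0.33 to -0.64 and the other 4 of -1.15 to -1.51, while BMMC arrays spread between -0.54 and 0.50 at low fibroblast signal.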

How the data were processed

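Signals came from 14 single-colour Agilent arrays, labelled from 450 ng RNA and read with Agilent Feature Extraction 9.5.1.1, per the file headers. The deposited intensity used was the processed signal of that software. The file headers of all arrays give its background correction setting as off and its spatial and multiplicative detrending as on. Here log2 values were taken and centred on the 75th percentile, array by array. Outlier spots were set to missing, and no control spot was used. Of 41174 probes, 23623 were well above background on at least 3 arrays and 32 of those lacked values in a group. The brightest probe was kept for each gene name, giving 16061 genes. The 4 groups were fitted together with limma 3.58.1 in R 4.3.3 (lmFit, eBayes, two-sided, Benjamini-Hochberg over all genes tested), which gives every adjusted p in the text. The fit was tested on simulated data.

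The authors also deposited a table of normalized intensities, each the raw value minus a constant per array. About 59% of its values are below 0, and it served as an alternative after a floor of 1 and log2. Other alternatives were median scaling, quantile normalization, normexp with offset 50, 2 other filters, the mean of probes, slide or replicate number as a block, leaving out the cocultured pair of slide 4, and leaving out each array.

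The members and lists were chosen with earlier results of these data known. Every member is named, with each array's value where it passed in a coculture or genotype comparison. Up to 2 genes with the lowest adjusted p per genotype are named from each other list, and 1 of these genes is not reported here. Same-numbered BMMC arrays of the 2 genotypes correlated at 0.197, 0.496 and 0.491 over genes, and these pairs also share a slide. These are not correlations of levels, which lay between 0.899 and 0.981 for arrays within a group. Pla2g3+/+ BMMC 1 correlated more with Pla2g3-/- BMMC 4 (0.358) than with Pla2g3-/- BMMC 1 (0.197). The data thus do not bear out the pair numbered 1. Probe positions are those of the array files (mm9) and promoters are RefSeq's (GRCm38.p6). Other processing steps are not given in the sources used here.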

Additional observations from a re-analysis of the deposited data

Results flagged for a closer look

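Among the 80 sets of levels tested in groups of 4 arrays, 2 held an array far from the other 3 (gap to the nearest array, over the range of the group, above Dixon's 95% critical value); chance alone gives about 1 in 20. Both came from Pla2g3+/+ cocultured 3, of slide 4. For Tpi1 it read 5.38 where the others read 4.27 to 4.41 (gap over range 0.879). For Slc16a3 it read 4.02 where the others read 1.60 to 1.94 (gap over range 0.861). The same array had 12 of 19 fibroblast markers well above background, and each of the other Pla2g3+/+ cocultured arrays had 18. The part of the slide or of the fibroblast RNA in these values was not tested.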

How the results depend on the processing

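The count of genes that passed in Pla2g3+/+ coculture, 16, became 26 without the cocultured pair of slide 4 and 7 with the authors' normalized values, and ranged from 9 to 23 when 1 array was left out (9 without Pla2g3+/+ BMMC 2, 10 without Pla2g3+/+ BMMC 3). In Pla2g3-/- coculture the count of 11 became 7 with median scaling, 17 with normexp, 7 without the filter on dim probes and 6 with the authors' values. It ranged from 7 to 13 when 1 array was left out, with 7 without Pla2g3-/- BMMC 2 or Pla2g3-/- BMMC 3. Without the pair of slide 4, which was singled out by its genotype difference, the genotype comparison after coculture gave 10 and the interaction 3. Every other alternative gave 0 for both, as all did for BMMCs. The cause of these shifts was not tested.

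With the replicate block, 12 genes passed in Pla2g3+/+ and 7 in Pla2g3-/- coculture, and no other count changed. Same-numbered arrays of the coculture comparisons correlated between -0.0606 and 0.121 in Pla2g3+/+ and between -0.0319 and 0.0925 in Pla2g3-/- cells. As for the BMMC arrays above, these are not correlations of levels. They do not bear out the numbers as pairs, and cannot show that those samples are unpaired.

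Some differences that passed nowhere changed sign. In Pla2g3+/+ cells these were Hk2 (-0.023 with median scaling, -0.038 with the slide block), Ero1l (0.13 with normexp, 0.10 with the replicate block, 0.37 with the authors' values) and Hk1 (0.12 with the authors' values). With 1 array left out, the range was -0.25 to 0.39 for Hk2, -0.60 to 0.25 for Ero1l, -1.15 to 0.69 for Hk3 and -0.86 to 0.034 for Ldhb. In Pla2g3-/- cells they were Ddit4 (0.020 with median scaling, 0.10 with the slide block), Ldha (-0.43 with quantile normalization, -0.54 with normexp, -0.037 with the replicate block, -0.39 with the authors' values), Hk3 and Ldhb (0.46 and 0.46 with normexp) and Vegfa (0.024 with the mean of probes). Without the pair of slide 4, Aldoa was 0.27, Gapdh 0.34, Slc2a1 0.17, Pdk3 0.022, Ddit4 0.35 and Higd1a 0.52. With 1 array left out, the Pla2g3-/- range was -0.66 to 0.27 for Aldoa, -0.34 to 0.35 for Ddit4, -0.91 to 0.34 for Gapdh, -0.48 to 0.52 for Higd1a, -0.15 to 0.53 for Ldha, -0.84 to 0.022 for Pdk3 and -0.53 to 0.17 for Slc2a1.

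Median scaling moved the median of all genes from -0.06 to -0.24 (Pla2g3+/+ coculture) and from 0.05 to 0.31 (genotypes after coculture). The median of the glycolytic enzymes ranged from -1.23 to -0.84 in Pla2g3+/+ coculture over all alternatives, and that of the targets from -1.19 to -0.70. In Pla2g3-/- coculture the enzyme median of -0.54 ranged from -0.98 (authors' values) to -0.18 (without the pair of slide 4), and the target median of -0.51 from -1.10 (authors' values) to -0.23 (without Pla2g3-/- BMMC 3). In the authors' values Hk3, Eno2, Ldhb and Adm lay at the floor on all Pla2g3+/+ arrays, and gave no difference. Signals of Hk3, Eno2, Ldhb and Adm are near background, which limits their precision.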
